A study of Mus musculus with 9 samples.

Results

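The 33 genes described here are markers of macrophages, of Kupffer cells (the resident macrophages of the liver) and of other myeloid cells, chosen by gene symbol, and all 33 were found among the 24421 symbols of each library. They were followed across 9 liver tumors of C57BL/6 mice aged 11 weeks, 3 each in the groups LHP, S7HP and S7HP+Snail. LHP files carry Luc (luciferase) in their column names, so these tumors serve as controls. S7HP columns are named for Smad7, an intracellular inhibitor of TGF-β receptors, and S7HP+Snail tumors have Snail, the transcription factor encoded by Snai1, in addition. The labels do not spell out H and P. In the published mouse model that uses these letters, H is an activated HRAS and P a short hairpin RNA against p53, both shared by all 3 groups and delivered into hepatocytes, which is background and not stated in the labels. Whether each tumor is from its own mouse is not in the labels, and p-values therefore cover only the spread among these 9 tumors, which may be technical. Each library was made from the RNA of a whole tumor, so fewer cells of a type and less RNA per cell cannot be told apart.

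Kupffer cells are seeded into the liver before birth and renew themselves locally. They line the sinusoids, take up bacteria, lipoproteins and dying cells from blood, and carry surface receptors that other macrophages mostly lack. When they are lost, or when a tumor grows, monocytes from blood enter the tissue and turn into macrophages, which depend on the receptor Csf1r and its ligands Csf1 and Il34. Both kinds of macrophage share the transcription factor PU.1 (gene Spi1), the C1q chains of complement, Fc receptors and a large lysosomal system.

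Values are log2(quantile-normalized read count + 1), with quantile normalization by the authors, and are called log2 values below. The 9 libraries had almost the same total, 19910396 to 19911234 normalized counts, because the normalization sets it, so the true depth per tumor is not kept. Reads of this 3′ assay count transcripts about once whatever their length. The tissue label fitted the hepatocyte marker Alb, with mean log2 values of 13.50, 16.22 and 15.99 for LHP, S7HP and S7HP+Snail. Of the 33 genes, 30 had a log2 value of at least 4 in all 9 libraries, and the lowest number of libraries for any of them was 7, so all 33 passed the filter on low values through more than 1 group. The test was limma's over 14215 genes, with 0.05 as the limit on the Benjamini-Hochberg adjusted p for a call. SE stands for limma's standard error, and SD for the spread among a group's 3 tumors.

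In S7HP tumors 4 of the 33 fell relative to LHP and 0 rose (limma): the scavenger receptors Marco and Msr1, the lysosomal membrane protein Laptm5 and the Fc receptor Fcgr3. Across all genes tested, 9.54% fell and 9.47% rose in that comparison, so the share of 12.1% that fell is near the background. With Snail added, 0 of the 33 rose or fell relative to S7HP (limma; 4 were higher and 0 lower at an unadjusted p under 0.05), where 1.01% of all genes rose and 1.29% fell. Between S7HP+Snail and LHP, 0 of the 33 rose or fell (limma; 2 were higher and 2 lower at an unadjusted p under 0.05), where 3.35% of all genes rose and 3.87% fell.

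The order of the group means was less even than the calls. The S7HP mean was the lowest of the 3 for 24 of the 33 genes (72.7%), against 34.1% of all genes tested, and it remained the lowest for 20 to 26 genes when any 1 tumor was left out. The LHP mean was the highest for 17 genes and the S7HP+Snail mean for 12. The median change of the 33 genes was -0.54 on the log2 scale in S7HP against LHP, 0.51 in S7HP+Snail against S7HP and -0.13 in S7HP+Snail against LHP, while the medians over all genes tested were 0.02, -0.02 and -0.00. The first 2 of these comparisons share the S7HP tumors. Summed over the 33 genes, normalized counts ran from 21167 to 30523 in LHP, from 11735 to 18232 in S7HP and from 18254 to 28059 in S7HP+Snail. S7HP thus lay below LHP, while its highest tumor, 12 (18232), nearly met the lowest S7HP+Snail tumor, 13 (18254). C1qa alone made up 19.8% of the summed counts. The median SD within a group was 0.41, 0.59 and 0.63 for the 33 genes in LHP, S7HP and S7HP+Snail, and 0.35, 0.41 and 0.45 for all genes tested.

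**Figure D1:**
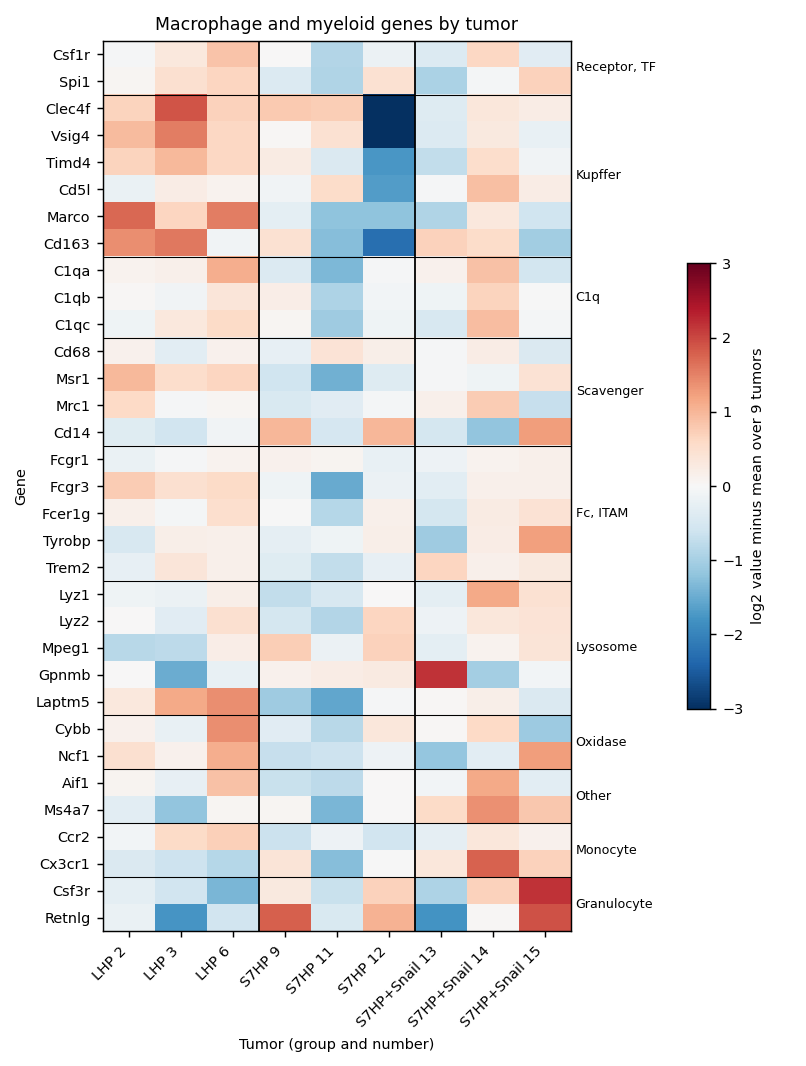
Heat map of the 33 genes (rows, grouped by role) in the 9 tumors (columns, ordered by group), coloured by the log2 value minus the gene's mean over the 9 tumors, with colours stopping at 3 in each direction. The deepest blue is in S7HP tumor 12, in the Kupffer cell genes Clec4f (log2 value 1.29) and Vsig4 (4.11), while most other genes of that tumor are near their mean.

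**Figure D2:**
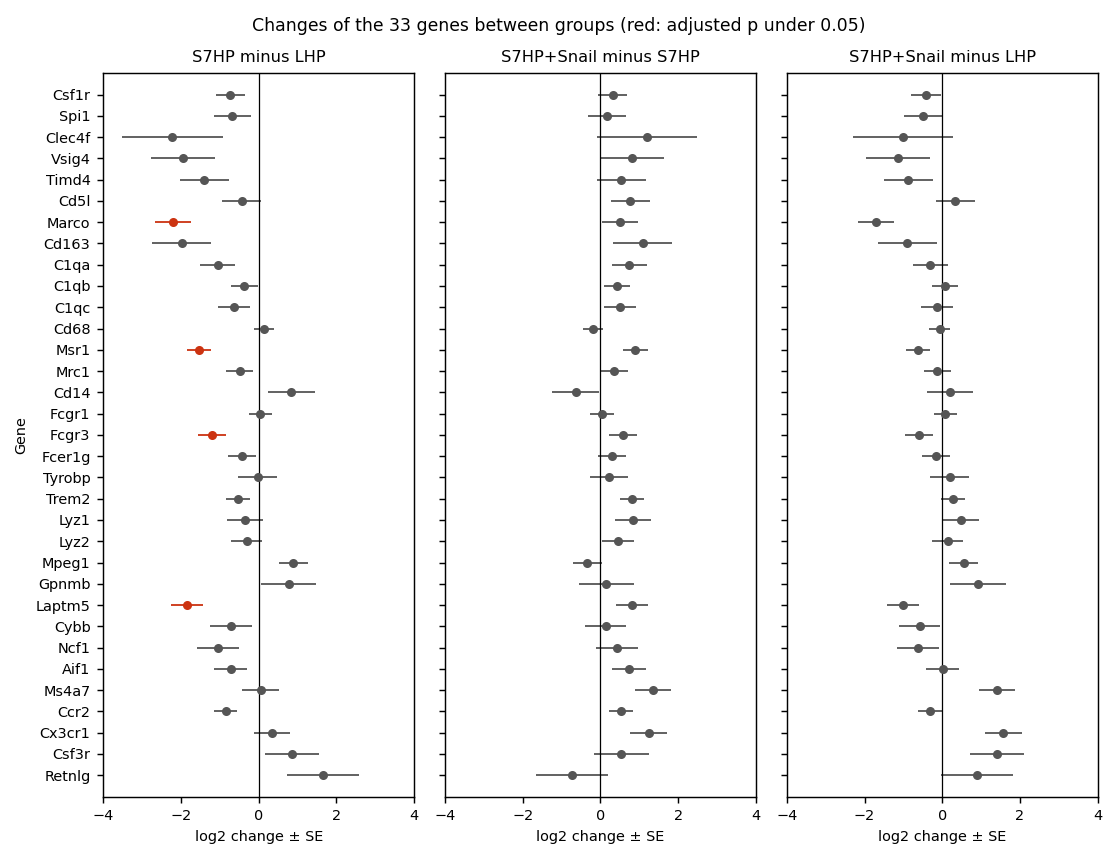
Log2 change of each of the 33 genes with limma's SE in the 3 comparisons, with genes called at an adjusted p under 0.05 in red. Called genes appear only in the left panel, S7HP minus LHP, where Marco (-2.21), Msr1 (-1.53), Laptm5 (-1.84) and Fcgr3 (-1.21) fell.

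Csf1r, the receptor that macrophages need to survive, and Spi1 did not pass the test in any comparison. Csf1r was at 8.39, 8.75 and 9.29 in LHP tumors 2, 3 and 6, at 8.44, 7.55 and 8.26 in S7HP tumors 9, 11 and 12, and at 8.02, 9.06 and 8.10 in S7HP+Snail tumors 13, 14 and 15. The groups overlapped, with S7HP tumor 11 lowest and LHP tumor 6 highest, and the difference between S7HP and LHP was -0.73 ± 0.38 (SE; limma, Benjamini-Hochberg adjusted p = 0.204). Spi1 differed by -0.68 ± 0.48 between the same groups (adjusted p = 0.347). Ptprc, which encodes the leukocyte common antigen CD45 and stands outside the 33, was at 9.66, 9.93 and 11.03 in LHP, 9.90, 9.46 and 9.97 in S7HP and 8.85, 10.44 and 10.38 in S7HP+Snail. Its groups overlapped, and its change in S7HP against LHP was -0.43 ± 0.47 (adjusted p = 0.56).

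Among the 6 Kupffer cell genes, Marco alone fell in S7HP against LHP (1 of 6, with 0 rising), and the other 5 did not pass. Of all genes tested, 9.54% fell and 9.47% rose there, so 1 of 6 is not read as a result about Kupffer cell genes. Marco, a collagenous receptor for bacteria and particles, was at 8.37, 7.30 and 8.18 in LHP tumors 2, 3 and 6. It was at 6.36, 5.43 and 5.45 in S7HP tumors 9, 11 and 12, and at 5.74, 6.96 and 6.04 in S7HP+Snail tumors 13, 14 and 15. Each of the 6 tumors with Smad7 lay below each LHP tumor. The change was -2.21 ± 0.46 (SE) in S7HP against LHP, 4.61-fold lower (limma, Benjamini-Hochberg adjusted p = 0.0108), and -1.70 ± 0.46 in S7HP+Snail against LHP, which did not pass (adjusted p = 0.054). The latter difference passed without S7HP+Snail tumor 14 (adjusted p = 0.0336) or without S7HP tumor 9 (adjusted p = 0.0499). Relative to Ptprc in the same tumor, Marco was also lower in every S7HP and S7HP+Snail tumor than in every LHP tumor, at mean log2 differences of -2.26, -4.03 and -3.64 in LHP, S7HP and S7HP+Snail. On that scale 4 of the 33 genes were lower in S7HP than in LHP without overlap (Marco, C1qa, Laptm5 and Ncf1) and 2 were higher (Cd14 and Mpeg1), while the called genes Msr1 and Fcgr3 overlapped. The share of all genes was not computed on that scale, so these counts are not read as a result. Ptprc itself changed by -0.43 in S7HP against LHP, less than the median of -0.86 over 14 leukocyte genes that include it.

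S7HP tumor 12 stood apart in the other Kupffer cell genes. Clec4f, a C-type lectin that in mice marks Kupffer cells, was at 6.89, 8.10 and 6.91 in LHP, at 7.02, 6.95 and 1.29 in S7HP, and at 5.84, 6.57 and 6.44 in S7HP+Snail. The value in tumor 12 was the second lowest above 0 in that library, which is about 2 reads if successive lowest values are successive read counts. Vsig4, the complement receptor CRIg that clears opsonized bacteria, was at 8.30, 8.88 and 7.97 in LHP, 7.39, 7.80 and 4.11 in S7HP, and 6.95, 7.64 and 7.14 in S7HP+Snail. All 6 tumors with Smad7 lay below the 3 LHP tumors for Vsig4, with tumor 12 far below the rest. Timd4, the phosphatidylserine receptor Tim-4 that binds dying cells, was at 5.34, 5.63 and 5.29 in LHP, 4.91, 4.23 and 2.92 in S7HP, and 3.92, 5.18 and 4.55 in S7HP+Snail.

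Timd4 too was lower in each tumor with Smad7 than in each LHP tumor. Cd163, the haptoglobin-hemoglobin scavenger receptor, was at 8.30, 8.47 and 6.80 in LHP, 7.36, 5.62 and 4.64 in S7HP, and 7.58, 7.44 and 5.86 in S7HP+Snail. Cd5l, the secreted macrophage protein AIM, was the most abundant of the 6, at 10.12, 10.54 and 10.44 in LHP, 10.23, 10.87 and 8.66 in S7HP, and 10.28, 11.24 and 10.56 in S7HP+Snail. Tumor 12 had the lowest S7HP value for 5 of the 6 Kupffer cell genes and for 1 of the other 27 genes, Fcgr1. Of all genes tested, 29.9% were lowest in it. In the same tumor Csf1r (8.26), C1qa (11.79) and Cd68 (9.89) lay within the range of the other tumors. None of these 5 changes passed in S7HP against LHP (limma, Benjamini-Hochberg adjusted p = 0.0951 to 0.568).

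Without tumor 12 the changes shrank for Clec4f from -2.22 to -0.32, for Vsig4 from -1.95 to -0.79, for Timd4 from -1.40 to -0.85 and for Cd163 from -1.98 to -1.37. Cd5l turned from -0.44 to 0.18. Marco stayed at -2.06 ± 0.53 and kept its call (limma, Benjamini-Hochberg adjusted p = 0.0344). The median change of the 6 genes was -1.97 with tumor 12 and -0.82 without it. For S7HP+Snail against S7HP, the changes of Clec4f, Vsig4 and Timd4 went from 1.20, 0.81 and 0.53 to -0.70, -0.35 and -0.02 without tumor 12, so their direction in that comparison rests on this tumor. Of 14 other Kupffer-associated genes, 7 had their lowest S7HP value in tumor 12 and 3 their highest, against 29.9% and 31.9% of all genes tested. Folr2, a folate receptor of resident macrophages, was at 7.38 there against 8.83 and 8.74 in the other S7HP tumors, whereas Hmox1, the heme-degrading enzyme heme oxygenase, was at 10.87 against 9.08 and 10.31. Both were named after their values were seen. Summed counts of the hepatocyte markers were 125533 in tumor 12 and between 120613 and 352723 over the S7HP group, and those of the endothelial markers were 5765, in a range of 4160 to 6767. Their part in the result was not tested.

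**Figure D3:**
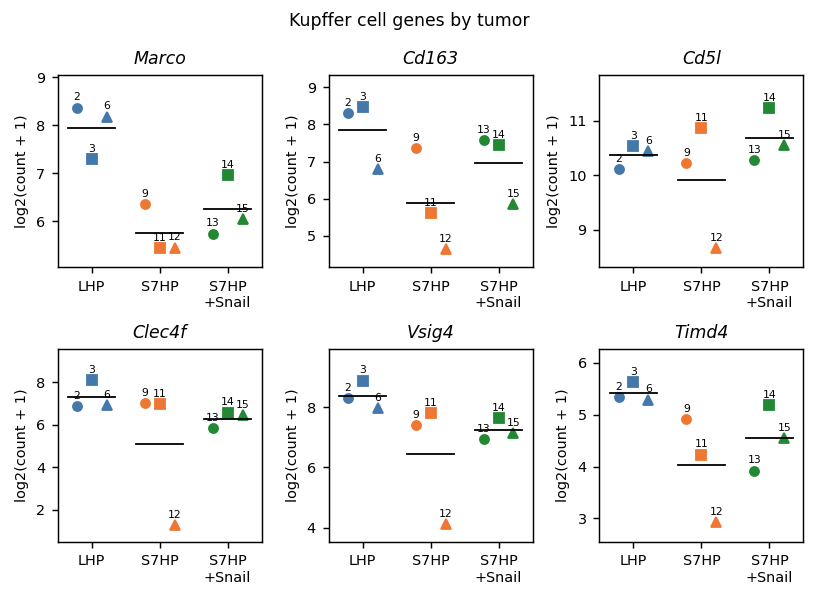
Log2 values of the 6 Kupffer cell genes in each tumor (points, labelled by tumor number) by group, with horizontal lines at group means and a separate vertical scale for each gene. Marco is lower in all S7HP and S7HP+Snail tumors than in all LHP tumors, and S7HP tumor 12 lies lowest of the 9 for Clec4f, Vsig4, Timd4, Cd5l and Cd163.

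Promoter sequences are shown for 3 of the 4 genes that fell and for Clec4f and Vsig4, the Kupffer cell genes that lay farthest below their mean over the 9 tumors in tumor 12. They are the 250 bases before the first listed start of each gene, from RefSeq on GRCm38.p6, the assembly that mm10 names. Capitals mark GAGGAA, the core of the site bound by PU.1, or its reverse complement TTCCTC, searched on both strands. Marco lies at chr1:120505025-120505274 (minus strand), Fcgr3 at chr1:171059404-171059653 (minus), Laptm5 at chr4:130913066-130913315 (plus), Clec4f at chr6:83656117-83656366 (minus) and Vsig4 at chrX:96293439-96293688 (minus).
Marco: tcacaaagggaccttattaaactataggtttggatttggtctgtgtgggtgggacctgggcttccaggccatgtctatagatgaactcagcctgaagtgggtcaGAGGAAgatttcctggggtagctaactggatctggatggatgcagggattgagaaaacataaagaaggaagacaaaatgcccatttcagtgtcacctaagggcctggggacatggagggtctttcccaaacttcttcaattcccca
Fcgr3: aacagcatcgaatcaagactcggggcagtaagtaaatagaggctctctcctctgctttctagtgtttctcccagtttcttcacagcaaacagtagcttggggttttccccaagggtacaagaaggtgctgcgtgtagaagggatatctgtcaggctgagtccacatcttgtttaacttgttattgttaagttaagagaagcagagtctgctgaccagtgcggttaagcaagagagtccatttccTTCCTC
Laptm5: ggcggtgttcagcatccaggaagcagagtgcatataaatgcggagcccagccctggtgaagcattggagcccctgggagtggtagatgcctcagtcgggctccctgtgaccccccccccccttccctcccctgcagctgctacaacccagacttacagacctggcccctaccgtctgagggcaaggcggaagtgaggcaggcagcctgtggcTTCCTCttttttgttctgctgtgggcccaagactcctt
Clec4f: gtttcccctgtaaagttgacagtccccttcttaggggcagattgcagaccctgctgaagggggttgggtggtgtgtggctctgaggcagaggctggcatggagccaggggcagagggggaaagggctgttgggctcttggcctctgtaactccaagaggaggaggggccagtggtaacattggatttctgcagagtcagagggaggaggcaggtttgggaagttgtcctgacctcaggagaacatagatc
Vsig4: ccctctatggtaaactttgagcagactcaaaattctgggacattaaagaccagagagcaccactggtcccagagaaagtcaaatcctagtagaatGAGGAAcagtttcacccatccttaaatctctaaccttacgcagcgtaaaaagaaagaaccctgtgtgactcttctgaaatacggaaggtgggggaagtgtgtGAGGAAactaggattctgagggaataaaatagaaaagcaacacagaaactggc

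The match in Marco begins 146 bases before the start, that in Laptm5 38 bases before it and that in Fcgr3 6 bases before it, the last 2 as TTCCTC. Fcgr3 had 2 listed starts, of which only the first was searched. Its window lies inside the span of the gene in GENCODE release M21, 171051174 to 171064935 on the minus strand. Most of the Laptm5 window, its match included, also lies inside that gene's span in M21, 130913125 to 130936141 on the plus strand. The Clec4f window overlaps its span, 83644542 to 83656187 on the minus strand, in part. In these windows not all bases are therefore upstream of the gene as M21 draws it. Vsig4 holds 2 matches, 155 and 53 bases before the start, and the Clec4f window holds none. The RefSeq table had a promoter for 27 of the 33 genes, not for Msr1, C1qa, Cd14, Csf1r, Spi1 or Tyrobp. In windows of 300 bases, 250 before and 50 after the start, GAGGAA or its complement was found in 15 of the 27 (55.6%) and in 28.3% of 27025 promoters of the table. CACGTG, the E-box bound by MITF and TFE factors, was found in 0 of the 27 and in 7.24% of all, and TTGCGCAA, a C/EBP site, in 0 of the 27 and in 0.185% of all. CACGTG and TTGCGCAA are their own reverse complements and do not overlap GAGGAA. A match is a run of letters and does not show binding.

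The 3 C1q chains, which assemble into the first component of complement and are made in tissue mainly by macrophages, did not pass the test in any comparison. They are neighbours on chromosome 4 of GRCm38 (GENCODE release M21), with C1qb from 136880129 to 136886187, C1qc from 136889804 to 136893065 and C1qa from 136895917 to 136898803, all on the minus strand. C1qa, the most abundant of the 33 genes with 19.8% of their summed counts, was at 11.94, 11.99 and 12.91 in LHP, 11.42, 10.48 and 11.79 in S7HP, and 11.95, 12.71 and 11.27 in S7HP+Snail. Each S7HP tumor lay below each LHP tumor, by -1.05 ± 0.45 on average (SE; limma, Benjamini-Hochberg adjusted p = 0.13), while S7HP+Snail overlapped both groups. C1qb changed by -0.37 ± 0.34 and C1qc by -0.63 ± 0.41 in the same comparison, with overlapping groups. All 3 chains were lowest in S7HP tumor 11. The log2 difference between C1qa and C1qb ran from 2.27 to 3.58 over the 9 tumors, and that between C1qc and C1qb from 0.73 to 1.48.

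Of the 4 scavenger and pattern receptors, Msr1 fell in S7HP and Cd68, Mrc1 and Cd14 did not pass. Msr1, the class A scavenger receptor that takes up modified lipoproteins, was at 9.86, 9.40 and 9.52 in LHP, 8.27, 7.44 and 8.50 in S7HP, and 8.85, 8.74 and 9.32 in S7HP+Snail. The 3 groups did not overlap, with LHP highest and S7HP lowest. Its change in S7HP against LHP was -1.53 ± 0.31 (SE), 2.88-fold lower (limma, Benjamini-Hochberg adjusted p = 0.0102). In S7HP+Snail against S7HP it was 0.90 ± 0.31, higher in 3 of 3 tumors without passing (adjusted p = 0.17). Msr1 lies on chromosome 8 from 39581685 to 39642673 and Marco on chromosome 1 from 120474538 to 120505024 (GRCm38, GENCODE release M21).

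Cd68, a lysosomal glycoprotein widely used as a macrophage marker, was among the flattest of the 33 genes. It was at 9.84, 9.40 and 9.86 in LHP, 9.47, 10.12 and 9.89 in S7HP, and 9.68, 9.94 and 9.29 in S7HP+Snail, and its changes were 0.13 ± 0.26, -0.20 ± 0.26 and -0.07 ± 0.26 (SE) in the 3 comparisons. Mrc1, the mannose receptor CD206, was at 10.56, 9.93 and 10.03 in LHP, 9.52, 9.63 and 9.90 in S7HP, and 10.13, 10.72 and 9.28 in S7HP+Snail. S7HP lay just below LHP without overlap, by -0.49 ± 0.35 (adjusted p = 0.358), and the S7HP+Snail tumors spanned both groups. Cd14, the lipopolysaccharide coreceptor, was split within groups, at 8.55, 8.34 and 8.80 in LHP, 9.90, 8.40 and 9.91 in S7HP, and 8.39, 7.73 and 10.16 in S7HP+Snail.

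Fc receptors and their signaling adaptors differed among themselves. Fcgr3, a low-affinity receptor for IgG, was at 11.24, 10.94 and 11.04 in LHP, 10.34, 8.96 and 10.30 in S7HP, and 10.14, 10.61 and 10.63 in S7HP+Snail, so all 6 tumors with Smad7 lay below the 3 LHP tumors. It fell by 1.21 ± 0.36 (SE) on the log2 scale in S7HP, 2.31-fold lower (limma, Benjamini-Hochberg adjusted p = 0.0412). The call was lost without LHP tumor 2, 3 or 6 (adjusted p = 0.112, adjusted p = 0.087 and adjusted p = 0.102) and without S7HP tumor 11, where the change was -0.75 (adjusted p = 0.0753). Fcgr1, the high-affinity receptor for IgG, held between 6.28 and 6.63 in every LHP and S7HP tumor and between 6.35 and 6.64 in S7HP+Snail, with a change of 0.04 ± 0.30 in S7HP against LHP. Fcer1g, the common γ chain that Fcgr1 and Fcgr3 need for signaling, changed by -0.44 ± 0.36, and Tyrobp, the adaptor DAP12, by -0.03 ± 0.50, with overlapping groups. Tyrobp was lowest and highest within 1 group, at 7.23 in S7HP+Snail tumor 13 and 9.54 in tumor 15.

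Trem2, the lipid-sensing receptor that signals through DAP12, was at 6.75, 7.36 and 7.16 in LHP, 6.65, 6.26 and 6.75 in S7HP, and 7.65, 7.15 and 7.29 in S7HP+Snail. Each S7HP+Snail tumor lay above each S7HP tumor, by 0.81 ± 0.31 (SE) on average, without passing (limma, Benjamini-Hochberg adjusted p = 0.206). In S7HP+Snail against S7HP the groups did not overlap, with S7HP+Snail higher, for 3 of the 33 genes (Ms4a7, Msr1 and Trem2; 9.09%), against 9.53% of all genes tested. The other direction held for 0 of the 33 and 11.0% of all genes.

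Among the 5 lysosomal and effector genes, Laptm5 fell in S7HP and the others did not pass. Laptm5, a lysosomal transmembrane protein of leukocytes (chromosome 4, 130913125 to 130936141), was at 10.52, 11.33 and 11.59 in LHP, 9.12, 8.64 and 10.16 in S7HP, and 10.24, 10.38 and 9.76 in S7HP+Snail. Both Smad7 groups lay below LHP without overlap. The change in S7HP against LHP was -1.84 ± 0.41 (SE), 3.59-fold lower (limma, Benjamini-Hochberg adjusted p = 0.014). Without LHP tumor 3 or 6 the change was -1.75 and -1.62, and the call was lost (adjusted p = 0.0536 and adjusted p = 0.0584). Against LHP, S7HP+Snail stood at -1.02 ± 0.41 (adjusted p = 0.159). Mpeg1, which encodes the pore-forming protein perforin-2, had higher values in S7HP, at 9.46, 8.55 and 9.41 against 7.89, 7.95 and 8.92 in LHP, with overlap and an adjusted p of 0.115 (limma, Benjamini-Hochberg).

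Gpnmb, a lysosomal glycoprotein also made by some tumor cells, was at 8.05, 6.56 and 7.82 in LHP and nearly constant in S7HP, at 8.18, 8.26 and 8.30. It then spread from 10.20 in S7HP+Snail tumor 13 to 7.03 in tumor 14, with 7.96 in tumor 15. It was the only 1 of the 33 genes (3.03%) with every S7HP tumor above every LHP tumor, where 20.9% of all genes tested had that order, and its change of 0.77 ± 0.71 (SE) did not pass (limma, Benjamini-Hochberg adjusted p = 0.478). The reverse order, S7HP below LHP without overlap, held for 10 of the 33 (30.3%) and for 21.3% of all genes. Lyz2, the lysozyme of myeloid cells, was at 8.80, 8.44 and 9.25 in LHP, 8.25, 7.89 and 9.43 in S7HP, and 8.63, 9.11 and 9.19 in S7HP+Snail, with overlapping groups. Lyz1, its neighbour on chromosome 10, lay 2.32 to 3.76 log2 units lower in the 9 tumors. The 2 genes share 21.9% of the stretches of 50 bases in the last 300 bases of their transcripts, so reads may be split between them.

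**Figure D4:**
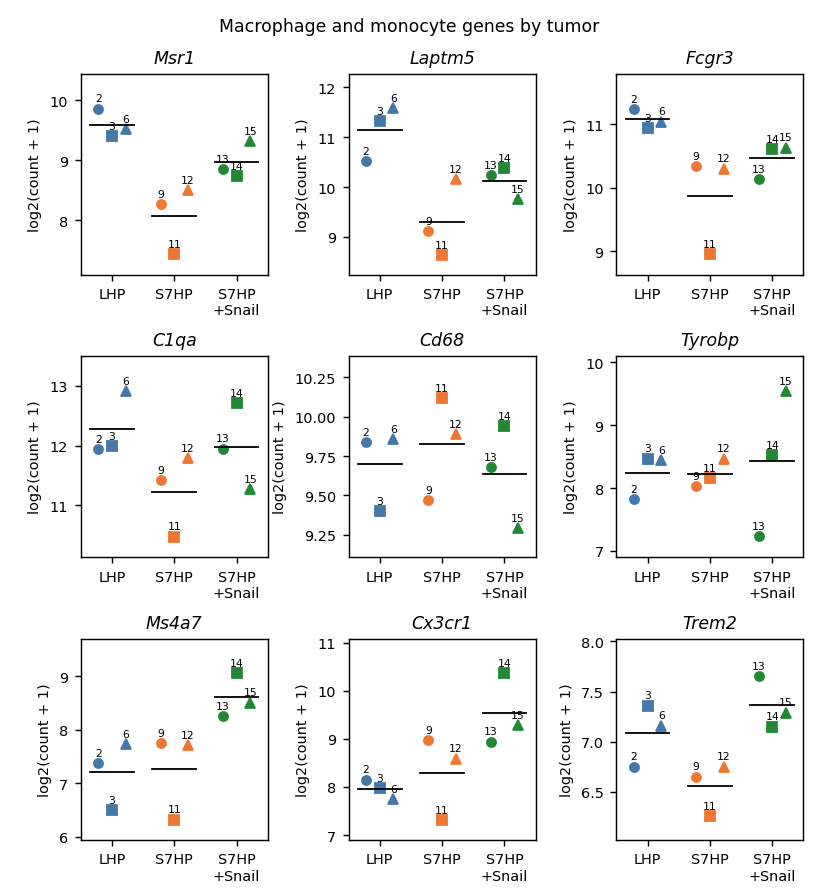
Log2 values of 9 macrophage and monocyte genes in each tumor (points, labelled by tumor number) by group, with lines at group means and a separate vertical scale for each gene. Msr1, Laptm5 and Fcgr3 are higher in all LHP tumors than in all S7HP tumors, Cd68 and Tyrobp overlap between groups, and Ms4a7 is highest in the 3 S7HP+Snail tumors (8.26 to 9.06).

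The oxidase genes Cybb and Ncf1 encode the membrane and cytosolic subunits gp91phox and p47phox of the phagocyte NADPH oxidase. Cybb was at 10.67, 10.30 and 11.92 in LHP, 10.19, 9.70 and 10.87 in S7HP, and 10.56, 11.14 and 9.45 in S7HP+Snail, with overlapping groups. Ncf1 was at 9.10, 8.75 and 9.71 in LHP and at 7.93, 8.02 and 8.48 in S7HP, without overlap, and spanned both groups in S7HP+Snail, at 7.47, 8.32 and 9.89. Its change of -1.05 ± 0.54 (SE) in S7HP against LHP did not pass (limma, Benjamini-Hochberg adjusted p = 0.2). The oxidase subunit p22phox, encoded by Cyba outside the 33 genes, fell in the same comparison by 1.39 ± 0.28 on the log2 scale (adjusted p = 0.00982), from 11.73, 11.42 and 12.12 in LHP to 9.85, 10.47 and 10.77 in S7HP. Cyba is also made outside myeloid cells.

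Aif1 (Iba1), a cytoskeletal protein of macrophages, was at 9.40, 9.07 and 10.20 in LHP, 8.65, 8.53 and 9.33 in S7HP, and 9.24, 10.45 and 9.01 in S7HP+Snail, with overlapping groups. Ms4a7, a membrane protein of macrophages, was at 7.38, 6.50 and 7.74 in LHP, 7.75, 6.32 and 7.71 in S7HP, and 8.26, 9.06 and 8.51 in S7HP+Snail. All 3 S7HP+Snail tumors lay above the other 6. Its change was 1.35 ± 0.47 (SE) in S7HP+Snail against S7HP and 1.41 ± 0.47 against LHP, and neither passed (limma, Benjamini-Hochberg adjusted p = 0.165 and adjusted p = 0.0981). Relative to Ptprc, Ms4a7 was again higher in each S7HP+Snail tumor than in each other tumor, at mean log2 differences of -3.0, -2.52 and -1.28 in LHP, S7HP and S7HP+Snail.

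The chemokine receptors Ccr2 and Cx3cr1, which distinguish blood monocyte subsets, did not pass in any comparison. Ccr2, which inflammatory monocytes use to leave the bone marrow, was at 7.97, 8.62 and 8.76 in LHP, 7.41, 7.90 and 7.47 in S7HP, and 7.79, 8.39 and 8.18 in S7HP+Snail. S7HP lay below LHP without overlap, by -0.85 ± 0.30 (SE), which did not pass (limma, Benjamini-Hochberg adjusted p = 0.075). Cx3cr1, the fractalkine receptor of patrolling monocytes and many tissue macrophages, was at 8.15, 7.97 and 7.74 in LHP, 8.97, 7.31 and 8.59 in S7HP, and 8.94, 10.37 and 9.28 in S7HP+Snail. Its S7HP+Snail tumors lay above all LHP tumors, by 1.57 ± 0.47, without passing (adjusted p = 0.0747), and the difference passed without S7HP tumor 11 (adjusted p = 0.0456). In S7HP+Snail against LHP, 2 of the 33 genes (Cx3cr1 and Ms4a7; 6.06%) were higher without overlap, against 14.7% of all genes tested. In the same comparison 7 (21.2%) were lower without overlap, against 15.8% of all genes: Clec4f, Vsig4, Timd4, Marco, Msr1, Fcgr3 and Laptm5.

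The granulocyte genes Csf3r and Retnlg varied widely within groups and did not pass in any comparison, and LHP had the lowest mean for both. In S7HP against LHP they changed by 0.86 ± 0.70 and 1.65 ± 0.93 (SE; limma, Benjamini-Hochberg adjusted p = 0.42 and adjusted p = 0.239). In S7HP+Snail against LHP they changed by 1.40 ± 0.70 and 0.90 ± 0.93 (adjusted p = 0.249 and adjusted p = 0.581). Csf3r, the receptor for the granulocyte growth factor G-CSF, was at 7.01, 6.73 and 5.94 in LHP, 7.61, 6.65 and 8.01 in S7HP, and 6.40, 8.0 and 9.48 in S7HP+Snail. Retnlg, a resistin-like protein of mouse neutrophils, was at 5.56, 3.98 and 5.18 in LHP, 7.54, 5.31 and 6.81 in S7HP, and 3.97, 5.79 and 7.67 in S7HP+Snail. S7HP+Snail tumor 15 was the highest of the 9 and tumor 13 among the lowest for both genes. S100a8 and S100a9, the calprotectin subunits of neutrophils and monocytes, were named after their values were seen, and they had the same highest tumor, at 13.71 and 14.14 in tumor 15 against 10.76 and 10.70 in tumor 13. The summed counts of 18 neutrophil genes were 41626 in tumor 15, 8692 in tumor 13 and between 6548 and 27412 in LHP and S7HP. S100a8 and S100a9 made up 75.7% of the sum in tumor 15. Without them it was 10129 there, below the 18732 of S7HP tumor 9, and 5295 in tumor 13. Lcn2 had the highest mean of the genes left, at 12.16 (SD 1.70) in S7HP and 11.90 (SD 0.14) in S7HP+Snail. The remaining sums thus rest largely on Lcn2, and the part of neutrophils in them was not tested. Tumor 15 also had the highest values of the 9 for Spi1 (7.93), Cd14 (10.16), Tyrobp (9.54) and Ncf1 (9.89). The part of neutrophils in those 4 values was not tested. Of the last 300 bases of Csf3r transcripts, 23.8% of the stretches of 50 bases also occur in other genes' transcripts.

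Within groups, single tumors set much of the spread. S7HP tumor 11 held the lowest S7HP value for 20 of the 33 genes, where 32.3% of all genes tested were lowest in it. S7HP+Snail tumor 13 held the lowest value of its group for 22, against 34.2% of all genes, and tumor 14 the highest for 18, against 33.5%. LHP tumor 6 held the highest value of its group for 18, against 30.2%. Summed counts of 14 leukocyte genes followed in part, with 25413 in LHP tumor 6 and 8511 in S7HP+Snail tumor 13 as the extremes of the 9 tumors. S7HP tumor 11 also had the highest low values, with a third-lowest distinct value above 0 of 2.64, against 1.22 to 2.12 in the other libraries. The part of depth in its low values was not tested.

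Of 15 tested growth factors, recruiting chemokines and their receptors, 2 (Il34 and Csf2) fell and 0 rose in S7HP against LHP, with a median change of -0.96. Of all genes tested, 9.54% fell and 9.47% rose. Csf2 passed the filter on low values only through LHP, where it was high, so its call is not read as a result. Il34, a ligand of Csf1r, was at 11.08, 11.38 and 11.20 in LHP, 7.69, 6.99 and 8.12 in S7HP, and 8.36, 11.40 and 9.47 in S7HP+Snail. It fell by 3.62 ± 0.64 (SE) on the log2 scale in S7HP, with an adjusted p of 0.00612 (limma, Benjamini-Hochberg), and S7HP+Snail tumor 14 was as high as LHP. Csf1, the other ligand, named after its value was seen, was at 9.74, 9.37 and 10.21 in LHP, 7.92, 8.18 and 9.02 in S7HP, and 8.48, 10.20 and 8.73 in S7HP+Snail, a change of -1.40 ± 0.47 in S7HP that did not pass (adjusted p = 0.065). S7HP lay below LHP without overlap for both ligands, and tumor 14 was the highest S7HP+Snail tumor for both and for Csf1r. Csf2, the granulocyte-macrophage growth factor GM-CSF, was at 7.91, 5.09 and 5.57 in LHP. It was listed at 0, 0 and 0.42 in S7HP and at 0, 0 and 0.42 in S7HP+Snail, with no fold given.

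With Snail added, 1 of the same 15 genes rose and 0 fell relative to S7HP, where 1.01% of all genes rose and 1.29% fell. Ccl7, a chemokine that binds Ccr2, rose by 2.94 ± 0.52 (SE), from 6.27, 6.23 and 7.12 to 9.75, 8.23 and 10.48 (limma, Benjamini-Hochberg adjusted p = 0.022). Ccl2, the main ligand of Ccr2, named after its value was seen, was at 8.43, 7.51 and 8.93 in LHP, 7.65, 8.05 and 8.32 in S7HP, and 10.53, 9.37 and 12.36 in S7HP+Snail. All S7HP+Snail tumors were above all others for Ccl2, and neither difference passed (adjusted p = 0.0697 against S7HP and adjusted p = 0.0532 against LHP). Ccr2 itself was at most 8.39 in these tumors and did not pass.

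**Figure D5:**
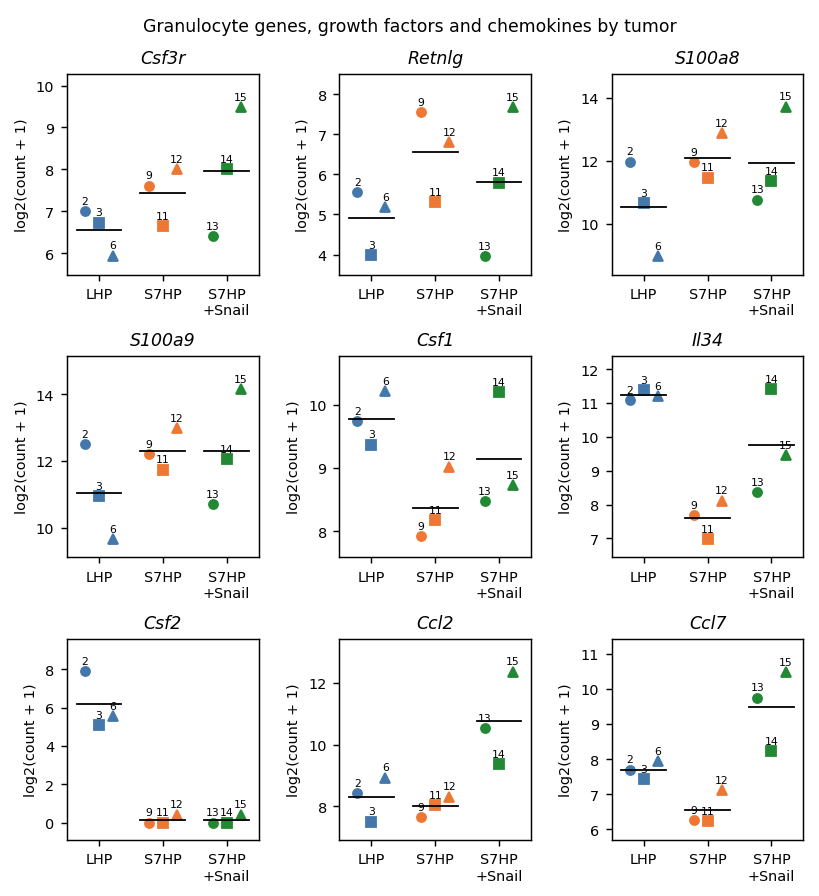
Log2 values of the granulocyte genes Csf3r, Retnlg, S100a8 and S100a9, of the growth factors Csf1, Il34 and Csf2 and of the chemokines Ccl2 and Ccl7 in each tumor (points, labelled by tumor number) by group, with lines at group means and a separate vertical scale for each gene. S7HP+Snail tumor 15 is highest for the 4 granulocyte genes, Csf2 is at or near 0 in all 6 tumors with Smad7, and Ccl2 and Ccl7 are highest in S7HP+Snail.

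The list counts that follow for S7HP against LHP stand beside 9.54% of all genes tested that fell and 9.47% that rose. Of 24 other myeloid genes, 6 fell and 0 rose in S7HP against LHP, with a median change of -0.69, and the 3 with the smallest adjusted p were Cyba, the β-glucan receptor Clec7a (-1.95 ± 0.51, SE) and the integrin Itgam (-1.41 ± 0.39; limma, Benjamini-Hochberg adjusted p = 0.0282 and adjusted p = 0.0317). In S7HP+Snail against S7HP, 0 of the 24 were called (limma; 2 higher and 0 lower at an unadjusted p under 0.05). Of all genes tested, 1.01% rose and 1.29% fell in that comparison, and 8.53% were higher and 9.29% lower at an unadjusted p under 0.05. Of 14 leukocyte genes, 3 fell and 0 rose in S7HP: the actin regulator Coro1a (-1.35), Hcls1 (-1.63) and Lsp1 (-1.43), with a median of -0.86. Of 12 tested other Kupffer-associated genes, Nr1h3, the oxysterol receptor LXRα, rose by 1.55 and Il18bp, which binds interleukin 18, rose by 1.15, while the lectin Clec4n fell by 1.59 on the log2 scale. Nr1h3 is also expressed by hepatocytes, and of 12 hepatocyte markers 5 rose and 0 fell in the same comparison. The part of hepatocytes in the change of Nr1h3 was not tested.

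Markers of other cell types moved between the groups as well, again beside 9.54% of all genes that fell and 9.47% that rose in S7HP against LHP. Of 12 fibroblast and stellate cell markers, 7 fell and 0 rose in S7HP against LHP, and their summed counts ran from 53286 to 73470 in LHP, 9001 to 13522 in S7HP and 16678 to 27045 in S7HP+Snail. Of 12 endothelial markers, 1 fell, Plvap, with sums of 6273 to 6892, 4160 to 6767 and 8342 to 10973. The 12 hepatocyte markers summed to 31365 to 52635 in LHP, 120613 to 352723 in S7HP and 94627 to 188053 in S7HP+Snail. Lymphocyte markers were sparse, with 9 of 15 tested and sums between 101 and 3004, of which Jchain made up 64.5%. Of the 9, 0 rose and 1 fell in S7HP against LHP, with a median change of 1.90. The gene was Jchain, at -4.02 ± 1.15 (SE; limma, Benjamini-Hochberg adjusted p = 0.0378), with overlapping groups. Jchain also fell in S7HP+Snail against LHP, by -5.81 ± 1.15 (adjusted p = 0.0202), where 3.87% of all genes fell. The part of these cell types in the changes of the 33 genes was not tested.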

How the data were processed

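Total RNA extracted with Trizol went into QuantSeq 3′ libraries, per the labels' protocols. Bowtie2, edgeR and mm10 are named, without versions or roles, per the submitters' processing notes; how reads were counted, and on which annotation, is not given in the sources used here. The authors deposited log2 values, read here as log2(normalized count + 1) after quantile normalization, since every library has nearly the same total and the same maximum of 20.06. One limma model (version 3.58.1, R 4.3.3; trend and robust variances, 6 residual degrees of freedom) held the 9 libraries. Genes needed 3 or more libraries at log2 4 or higher, and tests were two-sided. Fold changes are on the log2(value + 1) scale, which understates changes of low genes. The procedure was tested on simulated data. The members and lists were chosen with earlier results of these data known. Of 182 entries in 12 other lists, 181 were found. Members that were called, did not overlap between groups or led their role are given tumor by tumor. Of other lists, up to 3 called genes with the smallest adjusted p are named, but not for every list and comparison. Sequences come from RefSeq and positions from GENCODE release M21 (GRCm38). Alternatives were a filter, a scaling by trimmed means of M values (TMM), a pseudocount, a variance model, fewer libraries and each tumor left out. Count tests were not run, since the values are not counts.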

Additional observations from a re-analysis of the deposited data

How the results depend on the processing

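In S7HP against LHP, the calls of Marco and Msr1 held in 15 of 15 alternatives (limma, Benjamini-Hochberg adjusted p up to 0.0484 and up to 0.0461), that of Laptm5 in 12 and that of Fcgr3 in 9. The 4 genes called became 2 with no filter and ran from 2 to 5 when 1 tumor was left out. In S7HP+Snail against LHP, where 0 of the 33 were called, 1 (Marco) was called with a pseudocount of 16, and 0 to 1 when 1 tumor was left out. The count for S7HP+Snail against S7HP was 0 in every alternative. With no filter, calls over all genes fell from 2702 to 1488 in S7HP against LHP, from 1026 to 325 in S7HP+Snail against LHP and from 327 to 69 in S7HP+Snail against S7HP. With only the 6 libraries compared the last 2 were 682 and 120. Leaving out 1 tumor gave 1465 to 3163, 293 to 1049 and 63 to 451 in that order. The causes were not tested. With TMM scaling the median change over all genes was -0.01 in S7HP against LHP, beside 0.02 without it. That of the 33 genes was -0.57, beside -0.54, and 24 of 33 stayed lower in S7HP than in LHP. Leaving out tumors, an alternative added after seeing the data for these counts, gave 23 to 26 lower in S7HP against LHP, 4 to 9 lower in S7HP+Snail against S7HP and 14 to 21 lower in S7HP+Snail against LHP. No paired analysis was possible because the tumor numbers differ between the groups. With 3 tumors a group and no preserved depth, values near 0 rest on a few reads.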

Other observations

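Of 15 neutrophil genes tested, 1 rose (Hdc, 1.44 ± 0.38, SE) and 1 fell (Mmp9, -3.01 ± 0.60) in S7HP against LHP (limma, Benjamini-Hochberg adjusted p = 0.027 and adjusted p = 0.00901). Of all genes tested, 9.47% rose and 9.54% fell there. In S7HP+Snail against S7HP, 1 of the 15 rose and 0 fell, where 1.01% of all genes rose and 1.29% fell. The gene was Mmp9, which rose by 2.79 ± 0.60 (limma, Benjamini-Hochberg adjusted p = 0.0454) and differed from LHP by -0.22 ± 0.60. The granule genes Ngp and Camp, made by maturing neutrophils in bone marrow, were at 9.77, 7.92 and 7.0 and at 8.10, 6.75 and 4.84 in LHP tumors 2, 3 and 6. In S7HP they were at 3.97, 2.98 and 6.34 and at 0, 2.64 and 4.50, lower without overlap, and neither passed (adjusted p = 0.0902 and adjusted p = 0.111). Elane, the elastase of early precursors, was listed at 0 in 5 of 9 libraries and was highest in LHP tumor 2, at 4.70. Cxcr2, the chemokine receptor of mature neutrophils, was at 4.42, 3.44 and 4.94 in LHP and 6.36, 6.06 and 6.26 in S7HP, without overlap (adjusted p = 0.0972). Il1r2 and Trem1, also of mature neutrophils, had lower values in S7HP without overlap, by -1.29 ± 0.61 and -1.38 ± 0.97 (adjusted p = 0.169 and adjusted p = 0.347). Apart from Hdc and Mmp9, these genes were named after their values were seen.

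Of 10 dendritic cell genes tested, 1 fell and 0 rose in S7HP against LHP and 2 fell and 0 rose in S7HP+Snail against LHP. Of all genes tested, 9.54% fell in the former comparison and 3.87% in the latter. Ccl17, a chemokine of dendritic cells, was at 8.53, 9.17 and 8.93 in LHP, 4.20, 5.67 and 5.95 in S7HP, and 4.88, 5.59 and 5.55 in S7HP+Snail, changes of -3.60 ± 0.49 and -3.54 ± 0.49 (SE) from LHP (limma, Benjamini-Hochberg adjusted p = 0.00169 and adjusted p = 0.00468). The integrin Itgax (CD11c) fell by 2.04 ± 0.51 in S7HP+Snail against LHP (adjusted p = 0.0422). Of 12 inflammatory genes tested, 2 rose and 1 fell in S7HP against LHP, where 9.47% of all genes rose. Il1rn rose by 3.69 ± 1.07 and Cxcl1 by 1.93 ± 0.45 (limma, Benjamini-Hochberg adjusted p = 0.0397 and adjusted p = 0.0167). Il6 fell (adjusted p = 0.0294) but averaged 0.43 in S7HP, so its call is not read as a result. In S7HP+Snail against LHP, Cxcl1 alone rose (1.89 ± 0.45, adjusted p = 0.0366), where 3.35% of all genes rose.

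Lpl and Fabp5, lipid-handling genes of lipid-laden macrophages that hepatocytes and tumor cells also make, had the lowest adjusted p of the 15 genes of that list in S7HP against LHP. Of the 15, 3 rose and 0 fell there, where 9.47% of all genes rose and 9.54% fell. The third was Apoc1 (1.72 ± 0.53, limma, Benjamini-Hochberg adjusted p = 0.0481). Fabp5 was at 10.40, 10.29 and 10.35 in LHP, 14.00, 13.76 and 13.60 in S7HP, and 10.97, 10.33 and 10.60 in S7HP+Snail. It rose by 3.44 ± 0.22 (SE) in S7HP against LHP and fell by 3.16 ± 0.22 in S7HP+Snail against S7HP (limma, Benjamini-Hochberg adjusted p = 7.05e-05 and adjusted p = 9.08e-04). Lpl was at 9.16, 8.83 and 8.87 in LHP, 13.11, 11.45 and 12.07 in S7HP, and 12.33, 12.85 and 11.43 in S7HP+Snail, so Smad7 tumors with and without Snail were both above LHP. Trem2 and Gpnmb, which mark such macrophages among the 33 genes, did not pass in any comparison.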
